A study of Mus with 4 samples.

Results

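Myc, Mycn and Mycl of the Myc family were examined for occupancy by TBX3 in mouse hepatocytes, together with Pvt1, the long noncoding RNA gene beside Myc. These are 4 of the 49943 annotated genes on the main chromosomes, of which 21887 are protein-coding. The 4 genes and a stretch of 2 Mb of chromosome 15 around Myc and Pvt1 were selected on the ChIP score itself, because a high summit far from the genes lies in that stretch. All scores below are therefore given as a description, with no test. The chromatin came from primary mouse hepatocytes with the label pT2-SVNeo-EF1-eGFP-P2A-Tbx3-HA, in which an EF1 promoter drives green fluorescent protein and HA-tagged TBX3. An antibody against the HA tag gave 2 TBX3 ChIP libraries, and 2 Input libraries held sonicated chromatin of the same overexpressing cells. The tagged protein was thus present in every library, and a control antibody or cells without the transgene were not analysed here. A single track was deposited, without a value per replicate, so no score carries a replicate error, and which libraries entered the track is not stated in the sources used here.

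MYC proteins are transcription factors that bind DNA as dimers with MAX and drive ribosome production, metabolism and cell cycle entry. Myc is the member used by most dividing cells, whereas Mycn and Mycl are best known from the embryo, the nervous system and the tumours in which they are amplified. Myc lies almost alone in a long stretch without other protein-coding genes, many of its enhancers are far away in that stretch, and the Pvt1 promoter is known to compete with Myc for some of them. TBX3 is a T-box transcription factor, best known as a repressor, that in the liver is expressed by the hepatocytes around the central vein.

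The score is the −log10 of a p-value that MACS2 gives each base, for the reads piled up there against the number expected from the Input under a Poisson distribution. A run is an unbroken series of bases that each score 5 or more. A called region is made of runs joined over gaps of up to 30 bp and is at least 200 bp long. Each score also let the pileup and the expected number of reads be inferred. The lowest expected level in the genome was 2.43 reads. Intervals given below are 95% Poisson intervals on the inferred pileup, which cover counting error only.

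TBX3 signal around Myc passed the limits for a called region at one distal place and nowhere in the 4 genes. The distal region, chr15:62328241-62328608 in mm10, was 368 bp long and had its summit at position 62328434. At the summit 42 reads were piled up against 2.43 expected, a 17.2-fold excess and a score of 37.2, with an interval from 23.3 to 56.7. Read pairs cannot be seen in the track. As a stand-in for counting each pair once, the inferred pileup and the expected level were divided by 2, with the pileup rounded down. This gave a score of 19.7, which is below that interval. Of the 125 called regions in the genome it had the third highest summit, where the median summit was 12.6. It was also the highest of the 3 called regions on chromosome 15, ahead of a summit of 15.5.

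The distal region lay beyond Pvt1 as seen from Myc. Its summit was 68219 bp past the higher-coordinate end of Pvt1 and 338073 bp past the nearer end of Myc. Between them Pvt1 covered 222230 bp of chr15:62037986-62260215, and the gap from Myc, at chr15:61985341-61990361, to Pvt1 was 47625 bp. The protein-coding neighbour on the far side was Gsdmc, a gasdermin gene, at a distance of 1447537 bp. The region therefore fell in a gap of 1785610 bp between Myc and Gsdmc that holds no other protein-coding gene.

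**Figure D1:**
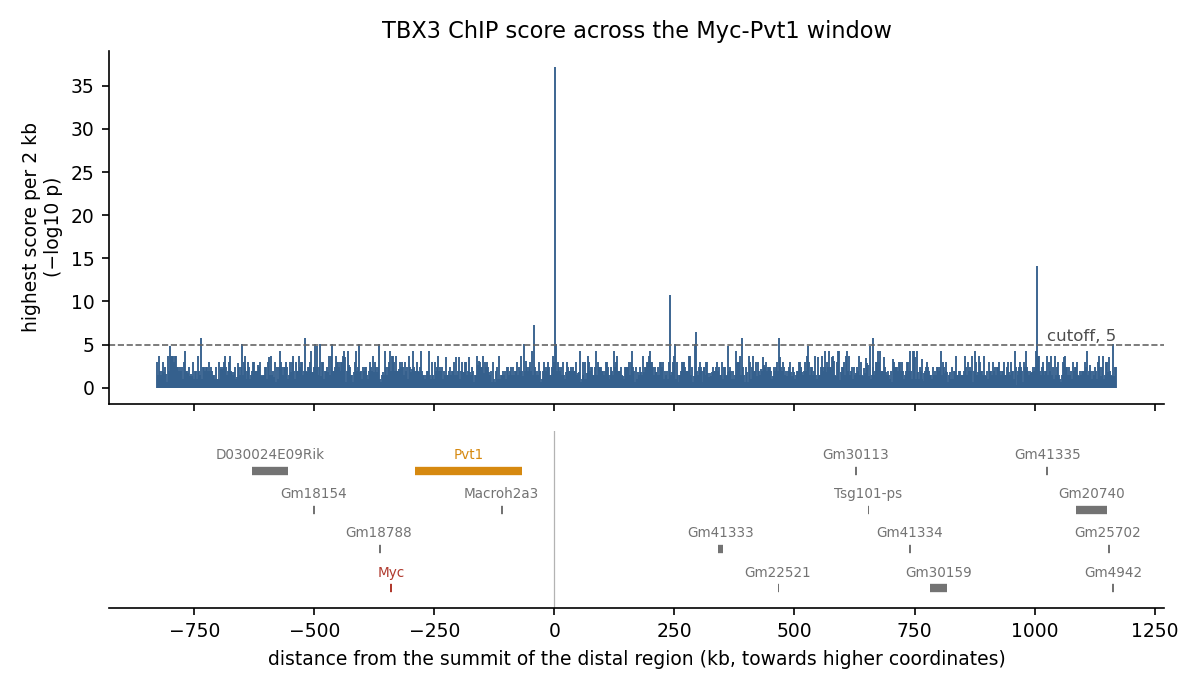
Highest score (−log10 p) in each 2 kb across the 2 Mb around Myc and Pvt1 (top), and the 16 annotated genes of that stretch as bars (bottom), against the distance from the distal summit in kb. The distal summit of 37.2 stands above all other places, the next are 14.1 and 10.7 on its far side, and nothing over Myc or Pvt1 reaches the dashed cutoff of 5.

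The region was picked as a distal one, so its distance is given as a description. No other called region was as far from a protein-coding gene. Of the 125 summits, 70 lay outside protein-coding genes, at a median distance of 2404.5 bp from the nearest, and 7 were more than 100 kb away. The next farthest were 323019 bp from Klf6, with a score of 9.85, and 281890 bp from Pex2, with a score of 18.3. Another 3 of the 7 lay 294 to 2961 bp from Rn18s-rs5, a ribosomal RNA gene copy. These 3 genes, like Gsdmc, were named after their values were seen. When genes of every kind were counted, 3 regions, the distal one included, were at least 68219 bp from any gene.

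**Figure D2:**
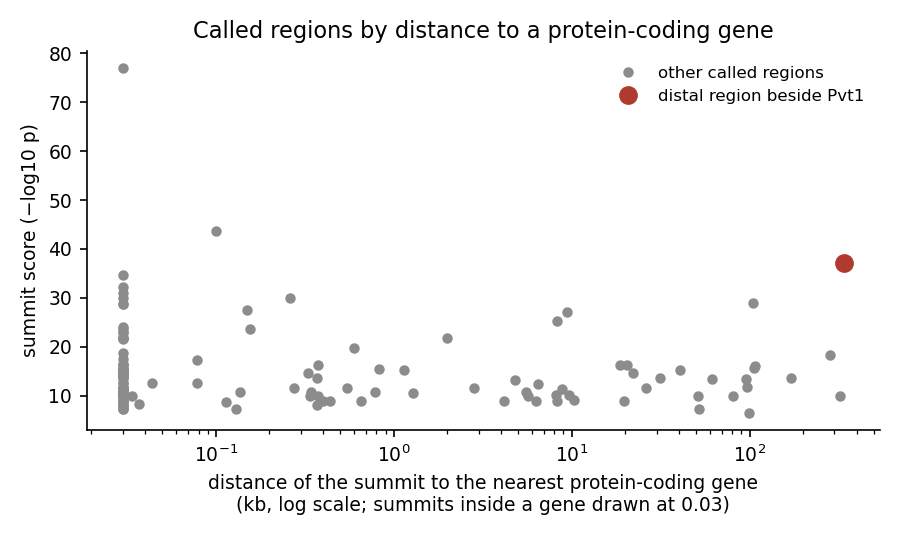
Summit score (−log10 p) of each of the 125 called regions against the distance from its summit to the nearest protein-coding gene (kb, log scale), with summits inside a gene drawn at 0.03. The red point is the distal region beside Pvt1, at 338073 bp and a score of 37.2, to the right of every other region.

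The pileup of the distal region rose from 2 reads at 250 bp below the summit to 10 reads at 200 bp, 18 at 150 bp and 28 at 100 bp. On the other side it fell from 42 reads to 28 at 100 bp, 14 at 150 bp and 9 at 200 bp, and was still 9 at 250 bp and 7 at 300 bp. The lower side had 2 reads at 250 and 300 bp and 6 reads at 400 to 500 bp, so the flanks held a few reads on both sides, nearer to the summit on the higher one. The pileup stayed at or above 0.5 times its maximum over 270 bp, 144 bp below and 125 bp above the summit. The expected level did not exceed 2.5 reads inside the region and was 3.34 reads at 200 bp above the summit. Since it cannot go below the genome-wide level, changes of the Input under 2.43 reads are not visible. Of the 104 changes of the pileup along the region, 91.3% were of 1 read, a lower share than the 95.5% to 98.5% in the 5 regions compared with it here, and the largest change was of 2 reads in all of them.

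**Figure D3:**
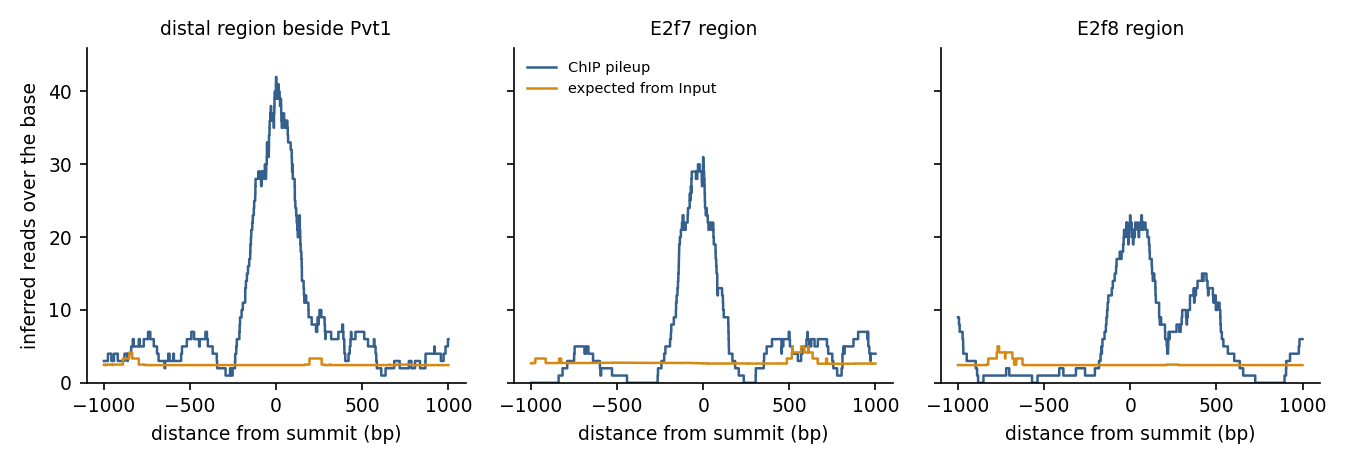
Inferred ChIP pileup (blue) and number of reads expected from Input (orange) over each base, against the distance in bp from the summit, for the distal region beside Pvt1 and for the regions at E2f7 and E2f8. The distal summit reaches 42 reads, E2f7 31 and E2f8 23, while the expected level stays near 2.43 to 2.69 reads at the summits.

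The 3 regions closest to it in score all had summits within the span of a protein-coding gene. The summit scores in Slx4ip and Haus8 were each also the highest within 1 kb of an end of 2 protein-coding genes, so these places were near gene ends. The 3 regions were in Phldb2 on chromosome 16 with 40 reads and a score of 34.7, in Slx4ip on chromosome 2 with 38 reads and 32.3, and in Haus8 on chromosome 8 with 37 reads and 31.1. Their intervals, from 18.7 at the lowest to 53.5 at the highest, overlapped that of the distal region, so the order of these 4 summits is not settled by the counts. At 0.5 times the maximum they were 207, 222 and 261 bp wide, the E2f7 and E2f8 regions 220 and 276 bp, and the distal region 270 bp. The pileup in the flanks of the distal region averaged 3.71 reads, against 1.01 to 2.3 reads beside the other 3, 3.38 beside the E2f7 region and 2.07 beside the E2f8 region. For scale, the regions at E2f7 and E2f8, genes of cell cycle repressors that the study examined, had scores of 22.8 and 15.5 from 31 and 23 reads.

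Ends of the 4 genes scored under the cutoff of 5. The gene table used here gives no strand, so each gene was given the highest score found up to 1 kb from its ends, and the start of a gene is one of the ends. At Myc it was 3.65, with 9 reads against 2.43 expected, 68 bp from the higher-coordinate end, and the lower-coordinate end reached 1.84 with 6 reads. At Mycn, chr12:12936093-12941836, the lower-coordinate end reached 3.02 with 8 reads and the other end 0.357 with 2 reads, fewer than expected. The ends of Mycl, chr4:122995588-123002490, scored 1.84 with 6 reads and 1.57 with 8 reads against 4.17 expected. Those of Pvt1 scored 2.44 with 7 reads and 1.9 with 6 reads.

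None of the 4 genes had a score of 5 at an end, a level that 789 of the 21887 protein-coding genes, or 3.6%, reached. The intervals of all 8 ends overlapped, from 1.04 to 9.92 at the higher end of Myc and from 0.06 to 2.57 at the higher end of Mycn. The order Myc, Mycn, Pvt1 and Mycl is therefore not settled by the counts at these single bases, where the median protein-coding gene had 2.44. Averaged over the 2 kb around an end, the pileup was 2.41 and 2.44 reads at Myc, 1.59 and 2.59 at Pvt1, 1.44 and 0.225 at Mycn and 0.819 and 1.06 at Mycl. A score as high as that of Myc was found at 14.7% of protein-coding genes, as high as that of Mycn at 29.0%, of Pvt1 at 50.5% and of Mycl at 77.4%. These shares depended on the setting. The alternatives were windows of 500 bp to 5 kb, and the pileup and expected level divided by 2. With these the shares ranged from 9.06% to 28.0% for Myc and from 28.0% to 70.5% for Mycn. For Pvt1 they ranged from 21.4% to 90.9% and for Mycl from 75.6% to 97.4%.

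**Figure D4:**
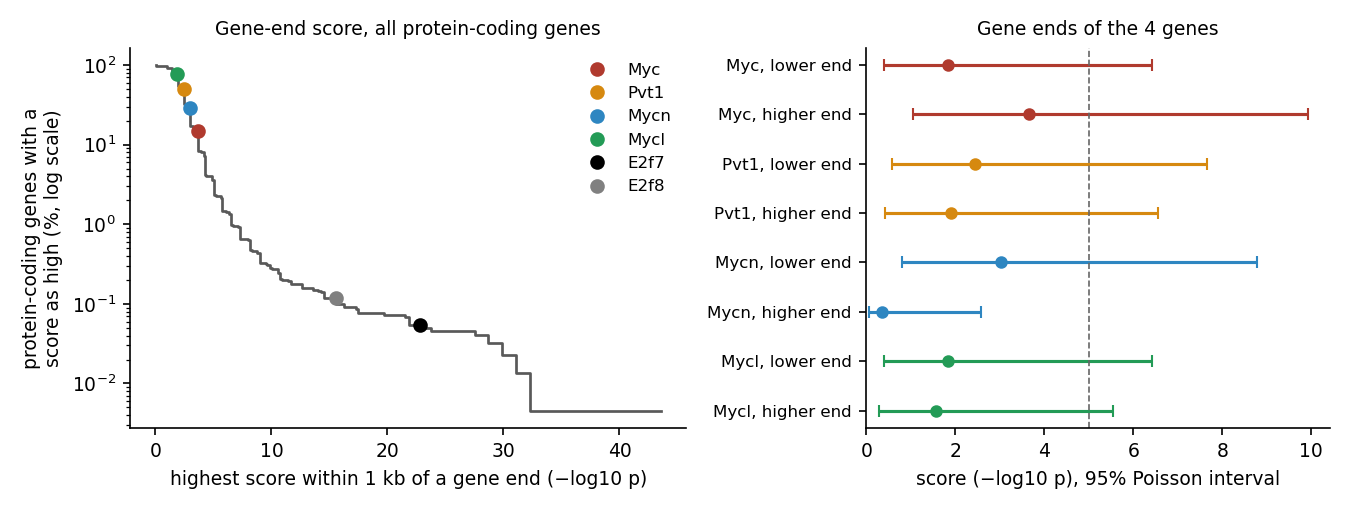
Left, share of protein-coding genes (%, log scale) whose highest score within 1 kb of a gene end (−log10 p) is at least the value on the horizontal axis, with Myc, Pvt1, Mycn, Mycl, E2f7 and E2f8 marked. Right, the score at each end of the 4 genes with its 95% Poisson interval. In the left panel the 4 genes sit between 1.84 and 3.65. In the right panel their ends run from 0.357 to 3.65, left of the cutoff of 5 (dashed), and the intervals overlap.

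Read depth differed between the chromosomes of the 4 genes and moved with part of this order. Mean pileup on chromosome 15 was 1.07 times the autosome median, on chromosome 12 it was 0.887 times and on chromosome 4 it was 0.695 times. Within its own chromosome Mycl was near the middle, since 638 of the 1328 protein-coding genes of chromosome 4, or 48.0%, had an end with a score as high. For Myc the share was 20.4% and for Pvt1 59.3% of 776 genes, and for Mycn it was 27.8% of 679 genes. The part of depth in the order of the 4 genes was not tested.

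Inside the genes no base reached 5 either. The highest score inside Myc was 4.31, from 10 reads, 2283 bp from its lower-coordinate end. Pvt1 also reached 4.31, Mycn 3.02 and Mycl 1.9. Of all protein-coding genes, 3038, or 13.9%, held a base with such a score, and long genes have more bases in which to reach it.

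Set beside protein-coding genes of 0.5 to 2 times its length, Myc was in the upper range and Mycl in the lower. A score as high as the top of Myc was found in 8.05% of 4954 such genes, and a mean score as high as its 0.574 in 4.46%. The reads over Myc averaged 2.54 a base, where the median of like-length genes was 1.65. The mean expected level over Myc was 2.7, but that level has a floor of 2.43 reads, so a mean pileup below it is usual. In the 20 bins of 100 kb around Myc and Pvt1 the mean pileup was 1.8 to 2.18 reads and the mean expected level 2.74 to 2.97. For Mycn 37.8% of like-length genes had a top score as high but 80.5% a mean score as high, and for Mycl the shares were 88.2% and 95.2%. Reads were absent from 58.5% of the bases of Mycn and 54.7% of those of Mycl, against 25.4% of those of Myc. The like-length genes came from all chromosomes. Mean pileup was 0.887 times the autosome median on chromosome 12 of Mycn, 0.695 times on chromosome 4 of Mycl and 1.07 times on chromosome 15 of Myc. The part of depth in these values was not tested.

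Pvt1 showed no concentration of signal along its length. When the gene was split into 10 equal parts, the highest score in a part ranged from 2.44 to 4.31 and the mean pileup from 1.49 to 2.06 reads. Among 1831 protein-coding genes of like length 79.8% had a top score as high, which puts Pvt1 on the low side by its top score. By its mean score of 0.372 the share was 32.6%, and by its share of bases with a score of 3 or more it was 33.5%, so its place among such genes depended on the measure. Macroh2a3, a transcribed pseudogene that lies within Pvt1, reached 1.42.

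The 4 genes met their highest scores at different distances. Within 10 kb the highest score was 4.31 for Myc, 5.01 for Pvt1, and 3.02 for both Mycn and Mycl, where the median protein-coding gene had 3.65. These distances are counted outward from the whole gene, so Pvt1, at 222230 bp, was searched over more bases than most genes. Protein-coding genes of like length to Pvt1 had a median top score of 5.01 inside the gene alone. Within 100 kb Pvt1 reached the distal summit of 37.2, a score as high as 5 protein-coding genes had at that distance. Mycn reached 8.8 within 100 kb, and 4.72% of protein-coding genes had a score as high. Myc was still at the median, 5.01, within 100 kb and met the same summit within 500 kb. At that distance 14 protein-coding genes, Myc included, had a score as high. Such genes share summits, since the distal one was the third highest of all called regions. The values of Myc and Pvt1 at 500 kb come from the same region and count as 1 observation.

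Mycn and Mycl had no comparable summit in reach, which was so for nearly all genes. Only 0.064% of protein-coding genes had a score of 37.2 within 500 kb. The locus of Myc and Pvt1 was selected for its summit, so this contrast with Mycn and Mycl was set by that choice. The highest score within 500 kb of Mycn was 8.8, from 16 reads over the 68 bp of chr12:12841983-12842050, 94089 bp away, and 15.7% of protein-coding genes had a score as high. For Mycl it was 5.96, from 13 reads at 311466 bp, below the median of 6.42. The nearest called region was 65409168 bp from Mycn, with a summit of 14.8, and 9508242 bp from Mycl, with a summit of 11.7. Only 3 regions were called on chromosome 12 and 1 on chromosome 4.

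**Figure D5:**
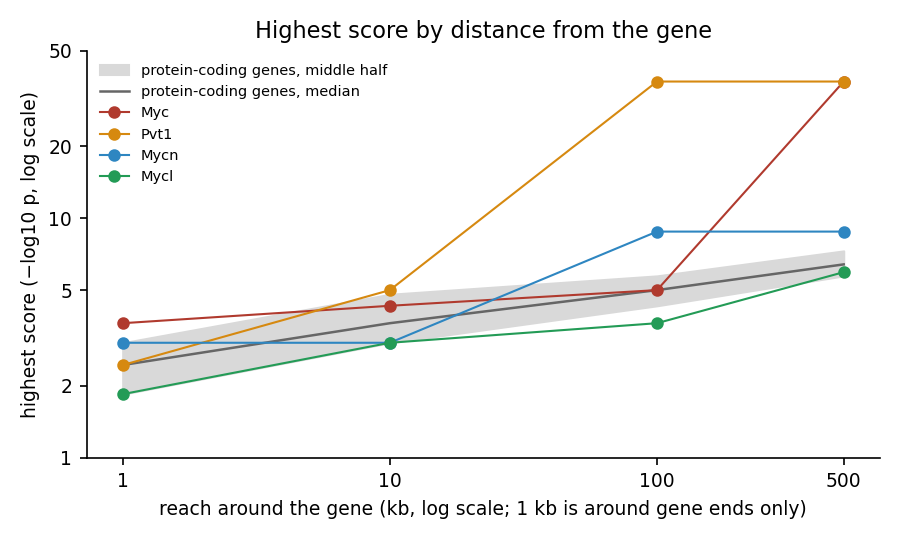
Highest score (−log10 p, log scale) within 1, 10, 100 and 500 kb (log scale) of Myc, Pvt1, Mycn and Mycl, with the median (line) and the middle 50% (band) of protein-coding genes, where 1 kb is measured around the gene ends only. Pvt1 meets 37.2 at 100 kb and Myc at 500 kb, Mycn is above the band at 100 and 500 kb with 8.8, and Mycl stays under the median. Reaches of 10 kb and more include the whole gene, so longer genes are searched over more bases.

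Besides the distal region, the 2 Mb around Myc and Pvt1 held many short runs. There were 31 runs in all, or 20 when those under 1 kb apart were joined, and their median length was 12 bp. Most were marginal, since 26 had scores of 5.01 to 5.75. The 16 runs just inside the cutoff scored 5.01, with 11 reads each, and the highest just outside scored 4.91. At their summits 3 runs still had a score of at least 5 with the pileup and the expected level divided by 2.

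None of the runs touched Myc, Pvt1 or the gap between them. Below Myc there were 13 runs, and above Pvt1 there were 18. The run nearest to Myc, at 21830 bp, and its close neighbours lay over and beside the pseudogene Gm18788 and scored 5.01. The nearest to Pvt1, at 5495 bp, scored 5.01 as well. The quietest 100 kb bins of the stretch were the pair that lie within Pvt1 and its flank, from 62000001 to 62200000, with mean pileups of 1.84 and 1.8 reads, where all 20 bins ranged from 1.8 to 2.18.

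Only 5 runs scored 6 or more, all of them above Pvt1. The first, chr15:62285488-62285580, lay between Pvt1 and the distal region, 25341 bp past the gene, with 14 reads and a score of 7.31. The distal region followed, and beyond it came chr15:62568952-62569085 with 18 reads and a score of 10.7, then chr15:62622058-62622124 with 13 reads and 6.51. These places were 93, 134 and 67 bp long, under the minimum for a called region, and their expected level was 2.43 reads.

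The run with the second highest score differed from these in its Input. It covered 100 bp at chr15:63332179-63332278, 21025 bp from the long noncoding RNA gene Gm41335, and had 32 reads against 5.84 expected for a score of 14.1. In the 3 short runs that follow it 38 to 39 reads met an expected level of 17.5 to 18.4, which gave scores of 5.07 to 5.53. Both the ChIP and the Input were thus raised here, and the part of the Input in this score was not tested. It was 1341855 bp from Myc.

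Besides Myc the stretch held 15 noncoding genes and pseudogenes, Pvt1 and Macroh2a3 included. The long noncoding RNA genes D030024E09Rik, Gm41333, Gm30113, Gm41334, Gm30159, Gm41335 and Gm20740 scored between 1.84 and 3.02 within 1 kb of an end, and Gm20740 was the highest. The snoRNA gene Gm22521 and the snRNA gene Gm25702 had 1.9 and 1.84, and the pseudogenes Gm18154 and Tsg101-ps had 2.37 and 2.62. The pseudogenes Gm18788 and Gm4942 alone reached the cutoff, with 5.01 each, beside the 3.6% of protein-coding genes that did. The share among noncoding genes and pseudogenes is not given here. Both scores were under the 5.46 that a Benjamini-Hochberg adjusted p of 0.05 gives.

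In number of runs the stretch stood in the upper range of the genome. Cut into 1269 windows of 2 Mb, the genome had a median of 11 runs a window, with quartiles at 7 and 17. As many as the 31 runs around Myc and Pvt1 were found in 63 windows, or 4.96%, and in 1 of the 50 windows of chromosome 15, whose median was 18.5. Mean pileup was 1.99 reads in the stretch, against medians of 1.76 over all windows and 1.92 on chromosome 15. The part of depth in the number of runs was not tested. A summit as high as 37.2 was found in 3 windows. These include the window of the distal summit itself, for which the stretch was selected. A called region was found in 97 windows, or 7.64%. The window centred on Mycn held 9 runs and the one centred on Mycl 8, neither with a called region, where the medians of their chromosomes were 8 and 3.

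Genes that act with MYC were followed as 3 lists, described by their counts beside those of all protein-coding genes. The lists were not picked by score, but were written with earlier results of these data known. Of the 10 genes of the MAX network, which are Max and Mlx with genes of their partners, 5 scored above the median of protein-coding genes. The median of the 10 was 2.53. Of all protein-coding genes 32.8% lay above that median, since many share its value. Above the cutoff were 2, against the background of 3.6%. These were Mlxip, a glucose-responsive partner of MLX, with 5.75 from 12 reads at the lower-coordinate end, and Mxd4, a repressor that pairs with MAX, with 5.01 from 11 reads. The score of Mxd4 was just inside the cutoff and under the 5.46 that a Benjamini-Hochberg adjusted p of 0.05 gives. Max itself, named here with Fbxw7 after their values were seen, scored 1.9.

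Of 11 cofactors and regulators of MYC turnover, 4 were above the median, beside 32.8% of all protein-coding genes, and 1 was above the cutoff, beside 3.6%. It was Usp28, a deubiquitinase that stabilises MYC, with 16 reads and a score of 8.98 at 298 bp from its lower-coordinate end. Fbxw7, whose product marks MYC for degradation and which USP28 opposes, had the lowest score of the list, 0.999. The median of the list, 2.44, was that of all protein-coding genes.

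Of 21 well-known MYC target genes, 11 were above the median of 2.44, again beside 32.8%, and 2 were above the cutoff, beside 3.6%. Cdk4, a kinase of the G1 phase, scored 7.31 from 14 reads at 379 bp from its lower-coordinate end. Ddx21, a nucleolar RNA helicase, scored 5.13 from 12 reads against 2.78 expected, which is also under 5.46. Both are on chromosome 10, whose mean pileup was 1.4 times the autosome median, and the part of that depth in their scores was not tested. At the base of their highest end score these 42 genes had at most 16 reads, under the 42 reads of the distal region. The same was so for nearly all genes. Only 1 of the 21887 protein-coding genes had an end score above the 37.2 of the distal summit.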

How the data were processed

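Per the submitters' processing notes, reads were mapped with Bowtie2 to mm10, handled with SAMtools and scored with MACS2, with versions not given in the sources used here. The authors deposited 1 track of −log10 p-values, the ChIP pileup against Input. The depth of each library is not given, and the inferred pileups add up to 30140727 ChIP reads extended to 150 bp.

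The members and lists were chosen with earlier results of these data known. The pileup and the expected level (the genome-wide level, or the Input over 150, 1000 or 10000 bp where that is higher) were inferred as the pair giving each score with fewest changes along the chromosome, found for 99.73% of bases scoring 5 or more and checked on simulated data. Gene positions came from a table of RefSeq GRCm38.p6 genes that holds no strand. Named were the 4 genes, all genes of the 2 Mb stretch, listed genes with a score of at least 5, E2f7, E2f8, and the 3 regions nearest in score to the distal one with their genes. Exceptions are stated. Windows of 2 Mb whose score was constant over more than 10% of their length were left out. Settings varied were the cutoff, gap, minimum length, window and expected level. A further setting divided the pileup and the expected level by 2 to stand in for counting read pairs once. Distances of 10, 100 and 500 kb and the windows centred on Mycn and Mycl were added after the data were examined. Motifs were not searched, since no genome sequence was used here. The scripts ran under Python 3.11.15 with the packages numba 0.67.0, scipy 1.17.1 and numpy 2.4.6 for the inference, pandas 2.3.3 for tables and matplotlib 3.10.9 for plots.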

Additional observations from a re-analysis of the deposited data

How the results depend on the processing

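The distal summit fell from 37.2 to 19.7 when the pileup and the expected level were divided by 2. That setting is called pairs counted once below, although no pairs were identified. The other alternatives gave 29.3 (mean over 150 bp) to 37.2. The called region in the stretch stayed 1 at a cutoff of 10, at the score of 5.46 that an adjusted p of 0.05 gives, with gaps of 100 bp joined and with pairs counted once. There were 2 regions at a cutoff of 3, 4 at a minimum length of 100 bp and 21 with no minimum. Scores at the ends of the 4 genes stayed within their Poisson intervals and under 5 for windows of 500 bp to 5 kb and with pairs counted once, from 1.0 to 4.31. Staying within the intervals is a weak check, since they are wide, as from 0.582 to 7.65 for Pvt1. The score of Pvt1 went from 1.0 with the window of 500 bp to 4.31 with that of 5 kb. Shares of genes scoring as high moved in 23 of 24 cases. Of the cofactor genes, 7 rather than 4 lay above the median within 2 kb, where 49.5% of all protein-coding genes did against 32.8% within 1 kb. No paired analysis was possible because the track holds no value per replicate, and for the same reason no replicate could be left out. The start site alone and the motifs could not be run without strand and sequence. Depth limits the gene ends, where the highest scores rest on 9 reads or fewer.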

Other observations

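Inside the genes of the MYC lists the high scores were in part at other genes than at the gene ends. A score of at least 5 was found inside 2 of the 10 MAX network genes, 2 of the 11 cofactor genes and 2 of the 21 target genes, beside 13.9% of all protein-coding genes. Huwe1, a ubiquitin ligase that acts on MYC, had the highest of these, 6.51, although its ends reached 1.9. Mga, a partner of MAX that also carries a T-box domain, had 5.75 inside the gene and 1.9 at its ends. Ep400, a chromatin remodeller, had 5.61 and 1.42, and Ncl, the gene of nucleolin, had 5.01 and 1.9. Mlxip and Ddx21 had the same score inside the gene as at an end, 5.75 and 5.13. These genes were named after their values were seen. Huwe1, Mga and Ep400 are 134633, 97627 and 106555 bp long, and the part of length in these values was not tested.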
